A study of Mus musculus with 23 samples.

Results

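The genes described here encode subunits of the GABA-A receptor other than alpha 2. They are the 7 genes Gabra3, Gabra4, Gabra5, Gabrb1, Gabrb2, Gabrg1 and Gabrd, taken by symbol from 39017 genes in 2 deposited expression tables. Poly(A) RNA was sequenced from mouse hippocampi in 23 libraries. Wild-type (WT) mice and mice labelled as Nrsn2-KO, a knockout of the neurensin 2 gene, were either controls or went through chronic social defeat stress (CSDS). Under CSDS, each day for 10 days brought 5 min in the cage of another unfamiliar CD-1 aggressor, after which a perforated divider kept the animals apart. The 4 groups compared, with 5 libraries each, were controls and CSDS animals of each genotype label. The sources used here do not give strain, age, sex or the design of the Nrsn2 allele.

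GABA-A receptors are pentameric chloride channels opened by GABA, the main inhibitory transmitter of the brain. Alpha and beta subunits together form the GABA binding sites, a gamma subunit next to an alpha subunit forms the benzodiazepine site, and a delta subunit in place of gamma gives receptors that lie outside synapses and carry tonic inhibition. In the hippocampus, alpha 5 is abundant in pyramidal cells and largely extrasynaptic, while alpha 4 pairs with delta in dentate granule cells, and alpha 2 is found at inhibitory synapses onto pyramidal cells. The question put to the data was whether the other subunit genes shift in the libraries where Gabra2, the alpha 2 gene, is low.

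Several facts about the libraries bear on all values below. For 3 further libraries (WT 9B and knockout-labelled 10B and 11) the title says control and the treatment field says CSDS, so they stayed outside the comparisons and are given singly. The series' design text counts 5 controls and 6 or 7 CSDS animals, which matches the treatment field. Depth, estimated from the deposited values, was 25.62 to 55.6 M reads per library, median 44.62 M. Nrsn2 itself was not lower in libraries labelled knockout, at 31.2 ± 1.93 RPKM against 29.1 ± 2.42 in WT among controls (SD, n = 5 each), so every genotype direction rests on the label alone. Control 10 of each genotype had Xist, which marks females, at 56.5 RPKM in WT and 48.2 RPKM under the knockout label. No CSDS library of the groups compared exceeded 0.0618 RPKM. Sex was thus not balanced between control and CSDS. Of the libraries of conflicting label, WT 9B had Xist at 0.025 RPKM and knockout-labelled 10B and 11 at 1.45 and 1.60 RPKM. Limma called 22.4% of all genes after CSDS in WT and 15% under the knockout label, in either direction. Blood genes were higher in WT after CSDS (5 of 5). Under the knockout label 5 of 7 meningeal fibroblast genes were lower after CSDS, and of 8 endothelial and pericyte genes 5 were lower and 1 higher. In WT 0 of 7 meningeal genes were called, and 2 of the 8 endothelial and pericyte genes were lower and 1 higher. After CSDS, 3 of 7 meningeal and 2 of 5 blood genes were called lower under the knockout label than in WT. Of either list 0 were called higher there, and 1.91% of all genes were called in either direction. Immediate early genes were lower after CSDS in both (9 of 11 in WT, 6 of 11 under the knockout label). Choroid plexus markers summed to between 22.3 and 4864 RPKM in WT controls. Markers of excitatory, dentate and CA pyramidal neurons were all detected, and no marker gene of any list was at 0. Whether any of these moved the subunit values was not tested. In whole tissue, fewer cells of a type and less RNA per cell cannot be told apart.

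Levels are RPKM, reads scaled to gene length and to the size of the library. Gabra2 was measured first. Its level was 38.6 RPKM in WT control 10 and 48.7 to 53.1 in the other WT controls, and 47.2 to 54.6 in WT after CSDS. Under the knockout label it was 21.4 to 26.2 in controls and 17.4 to 18.5 after CSDS. No knockout-labelled library reached the lowest WT library. The fold change was −1.06 ± 0.09 on the log2 scale among controls (SE, adjusted p = 0.00073) and −1.47 ± 0.04 after CSDS (adjusted p = 1.34e-09), both by limma on log2(RPKM + 0.5) with Benjamini-Hochberg adjustment over all genes tested. All adjusted p-values below come from that test, a gene is called when its value is below 0.05, and fold changes carry their SE. The labels number the libraries without saying that each is a separate animal, so p-values measure only the spread between these samples.

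Among controls, where Gabra2 was lower under the knockout label, none of the 7 other subunit genes passed the test. Limma called 0 of 7 in either direction, against 1.14% of the 18297 genes tested, and 0 of 7 had an unadjusted p under 0.05. Their median log2 fold change was 0.02, against 0.01 for all genes, and the 95% intervals of the 7 genes ran from −0.25 to 0.23. Differences inside that span are not excluded by these libraries. With control 10 of both genotypes left out, 0 were called as well. There, Gabrb1 was higher under the knockout label by 0.13 ± 0.04 (limma unadjusted p = 0.0134, adjusted p = 0.156). Gabrd was higher by 0.14 ± 0.05 (limma unadjusted p = 0.0143, adjusted p = 0.159). After CSDS, where Gabra2 was lower still, 1 of 7 was higher under the knockout label, against 1.91% of 18225 genes called and 1.1% called higher. That gene was Gabrd.

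**Figure D1:**
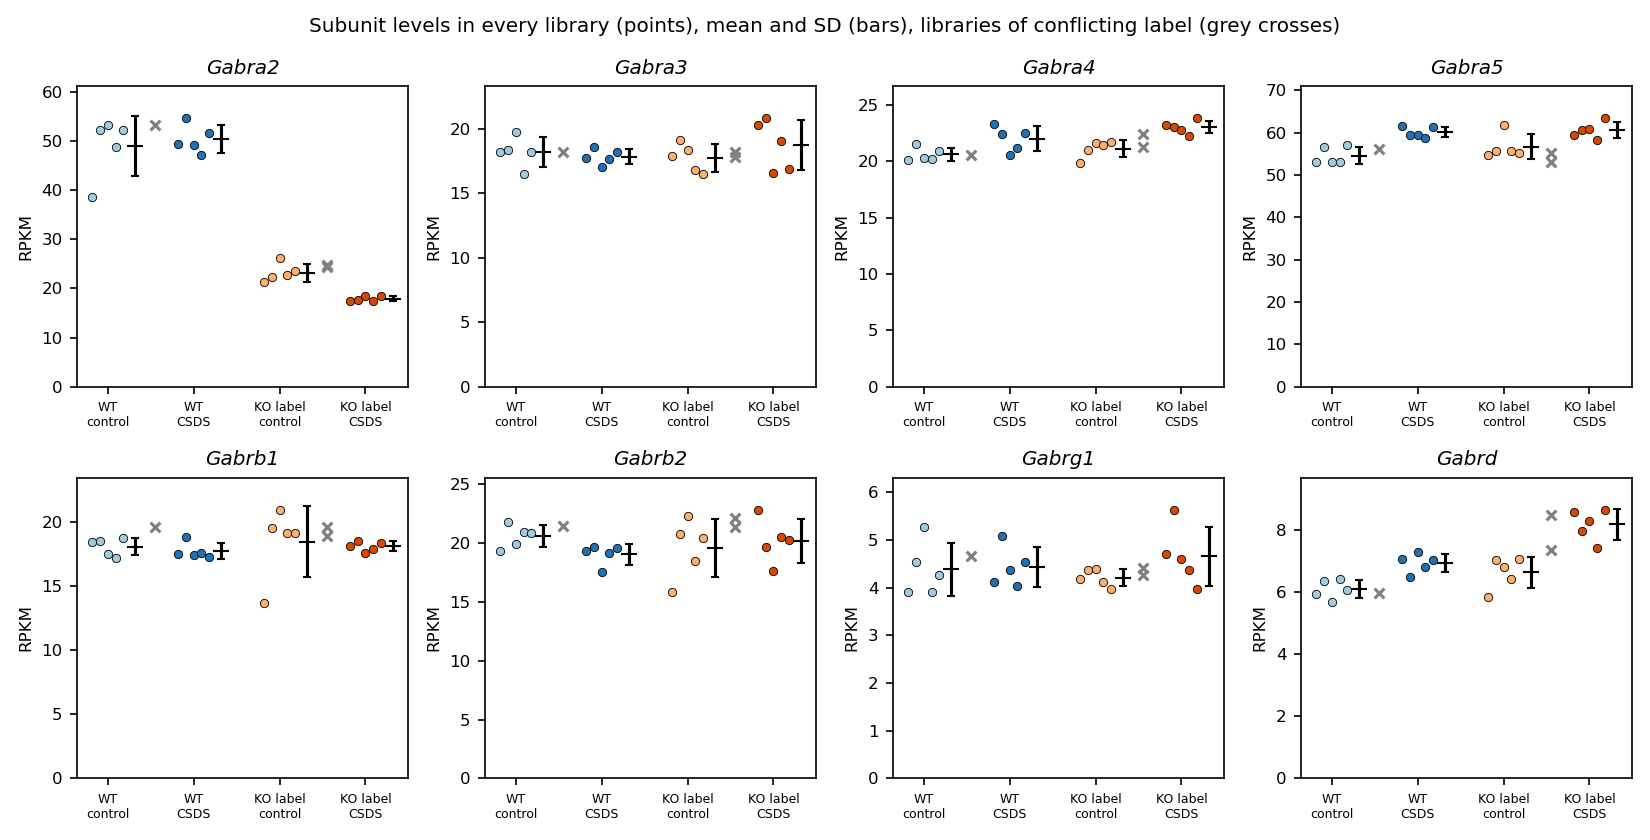
RPKM (y axes, each from 0) of Gabra2 and the 7 other subunit genes in every library of the 4 groups, with the group mean and SD beside the points. Gabra2 separates the knockout label from WT without overlap, Gabrd is highest in the knockout-labelled CSDS libraries (7.43 to 8.65 RPKM), and KO control 10 lies low for Gabrb1 (13.6 RPKM) and Gabrb2 (15.8 RPKM).

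Gabrd encodes the delta subunit of extrasynaptic receptors. The gene lies at chr4:155384980-155398112 (mm10, minus strand, ENSMUSG00000029054). WT controls 6 to 10 measured 6.37, 5.68, 6.42, 6.08 and 5.95 RPKM, and WT CSDS libraries 1 to 5 measured 7.07, 6.49, 7.29, 6.82 and 7.03. Knockout-labelled controls 6 to 10 measured 7.03, 6.82, 6.43, 7.06 and 5.85 RPKM, and knockout-labelled CSDS libraries 1 to 5 measured 8.58, 7.97, 8.28, 7.43 and 8.65. Within each genotype every CSDS library lay above every control, and after CSDS every knockout-labelled library lay above every WT library. Such a separation upward held for 7.49% of all genes in WT after CSDS, 5.45% under the knockout label and 2.98% between genotype labels after CSDS. The 2 groups of controls overlapped only through knockout-labelled control 10, and the other 4 knockout-labelled controls lay above every WT control.

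Gabrd rose after CSDS in WT, from 6.10 ± 0.305 to 6.94 ± 0.301 RPKM (SD, n = 5; log2 fold change 0.17 ± 0.04, limma adjusted p = 0.0132). It rose after CSDS under the knockout label as well, from 6.64 ± 0.507 to 8.18 ± 0.499 RPKM (0.28 ± 0.06, adjusted p = 0.00999, limma). The difference between these effects was 0.11 ± 0.07 with a 95% interval of −0.04 to 0.26, and did not pass (limma adjusted p = 0.586). Among controls the knockout label gave 0.11 ± 0.05 (limma adjusted p = 0.359).

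After CSDS, Gabrd was higher under the knockout label than in WT by 0.22 ± 0.04 on the log2 scale (limma adjusted p = 0.0326), the single call among the 7 genes in a genotype comparison. That call was lost when any of 7 of the 10 libraries was left out (WT CSDS 1, 4 or 5, or knockout-labelled CSDS 1, 2, 3 or 5, limma adjusted p up to 0.0802), with the difference staying at 0.20 to 0.25. It was also lost without a filter on low values (limma adjusted p = 0.0565), with array weights (0.0566) and with the replicate number as a block (0.0521). The 2 CSDS effects kept their calls when any 1 library was left out, with limma adjusted p up to 0.0337 in WT and 0.0269 under the knockout label. With the libraries of conflicting label added as CSDS, the WT effect was 0.14 and no longer called (limma adjusted p = 0.102). With them added as controls the effect under the knockout label was 0.22 and not called (limma adjusted p = 0.0531).

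Gabrd values rest on 502 to 1254 reads per library. Counting alone gives a coefficient of variation of 3.13% to 3.63%, while libraries of a group varied by 4.34% to 7.64%. Of 6 dentate granule cell markers, 0 were called in WT after CSDS, and under the knockout label 0 rose and 1 fell after CSDS. Among controls 1 dentate marker, C1ql2, was higher under the knockout label (0.44 ± 0.08, limma adjusted p = 0.0236). Between genotype labels the median over the 6 markers was 0.21 among controls, against 0.01 over all genes. After CSDS it was 0.11, against 0.00, with 0 called. The summed level of the markers was 47.5 to 70.5 RPKM in WT controls and 67.6 to 78.5 in knockout-labelled controls. After CSDS it was 57.5 to 67.7 RPKM in WT and 59.2 to 75.6 under the knockout label. The sums overlapped both times, and the part of these markers in the Gabrd difference was not tested. Interneuron genes were higher after CSDS under the knockout label for 4 of 10, against 6.17% of all genes. They were Gad1 (0.26 ± 0.03), Gad2 (0.31 ± 0.05), Slc32a1 (0.26 ± 0.06) and Npy (0.19 ± 0.05), which make or load GABA or encode an interneuron peptide. The others were not called. Of these, Cck (−0.18 ± 0.07), Pvalb (−0.05 ± 0.15), Lhx6 (−0.05 ± 0.03) and Vip (−0.03 ± 0.07) went down. Sst (0.05 ± 0.05) and Reln (0.10 ± 0.11) went up. The summed level of the 10 was 516 to 608 RPKM in those controls and 536 to 564 after CSDS, overlapping. In WT 0 of 10 were higher and 1 lower after CSDS. The part of these genes in the Gabrd result was not tested either.

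Gabra5 encodes alpha 5, the subunit of many extrasynaptic receptors on pyramidal cells. It lies at chr7:57407672-57510059 (minus strand, ENSMUSG00000055078). WT controls 6 to 10 measured 56.7, 53.1, 53.0, 57.0 and 53.2 RPKM, and WT CSDS libraries 1 to 5 measured 61.7, 59.6, 59.5, 58.8 and 61.4. The groups did not overlap, an upward separation that 7.49% of all genes showed there. Gabra5 rose by 0.14 ± 0.03 (limma adjusted p = 0.00717). Knockout-labelled controls 6 to 10 measured 55.7, 61.9, 55.8, 55.2 and 54.8 RPKM, and the CSDS libraries 59.5, 60.7, 60.8, 58.3 and 63.4. Control 7 alone lay inside the CSDS range, and the difference of 0.10 ± 0.04 did not pass (limma adjusted p = 0.114). Without control 7 it was 0.13 with a limma adjusted p of 0.0199. With the libraries of conflicting label added as controls it was 0.11 (limma adjusted p = 0.0402). The genotype difference in the CSDS effect was −0.04 ± 0.05, with a 95% interval of −0.14 to 0.05. Between genotype labels Gabra5 differed by 0.05 ± 0.04 among controls and 0.01 ± 0.03 after CSDS, neither called.

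Gabra5 and Gabrd were the 2 of 7 genes called in WT after CSDS, both higher, while 9.88% of the 18274 genes tested were called higher and 22.4% in either direction. The median over the 7 was 0.02, against −0.00 over all genes. Exons of Gabra5 share 148 bases with Gm9962, which was also higher in WT after CSDS (0.19 ± 0.05, limma adjusted p = 0.0277). The library kit does not keep strand, so reads from the shared bases cannot be told apart. In the authors' deposited table, which counts the libraries of conflicting label as controls, the WT effect was 0.13 for Gabra5 (FDR 0.0258) and 0.19 for Gabrd (FDR 0.0497). The authors' deposited table calls 21% of its 17840 genes in WT at that threshold.

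The bases just before the annotated starts of Gabra5, which rose in WT, and Gabra2, which was low under the knockout label, are shown to set the regions side by side. Both are 250 bases from RefSeq (GRCm38.p6, minus strand, 5′ to 3′), at chr7:57510060-57510309 and chr5:71095850-71096099, outside GENCODE exons. Capitals mark CG dinucleotides.
Gabra5: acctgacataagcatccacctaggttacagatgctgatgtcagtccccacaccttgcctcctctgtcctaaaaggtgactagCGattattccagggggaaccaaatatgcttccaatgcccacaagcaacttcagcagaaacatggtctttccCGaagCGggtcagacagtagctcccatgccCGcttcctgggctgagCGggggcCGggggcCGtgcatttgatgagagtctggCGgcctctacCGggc
Gabra2: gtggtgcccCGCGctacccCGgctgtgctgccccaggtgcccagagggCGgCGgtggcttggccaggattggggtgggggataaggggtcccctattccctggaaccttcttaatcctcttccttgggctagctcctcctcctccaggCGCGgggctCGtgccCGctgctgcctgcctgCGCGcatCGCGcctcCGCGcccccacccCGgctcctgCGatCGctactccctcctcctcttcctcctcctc
The Gabra5 window holds 9 CG dinucleotides at 56.4% G and C, and the Gabra2 window holds 18 at 70%. The median over all 32851 windows of that length was 6. Neither window holds the cAMP response element TGACGTCA (1.55% of all windows), its core TGACG (17.8%), the EGR forms GCGTGGGCG (0.536%) and GCGGGGGCG (2.57%) or the AP-1 form TGANTCA (6.75%), searched on both strands. These letters are a description of the windows only. Of the 8 subunit genes, 7 had a window, and Gabrd did not.

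Gabra4 encodes alpha 4, the usual partner of delta in granule cells. It lies at chr5:71569749-71658308 (minus strand, ENSMUSG00000029211). Knockout-labelled controls 6 to 10 measured 20.97, 21.63, 21.42, 21.74 and 19.87 RPKM, and the CSDS libraries 1 to 5 measured 23.20, 23.02, 22.80, 22.27 and 23.81. The groups did not overlap, an upward separation that 5.45% of all genes showed there. Gabra4 rose by 0.12 ± 0.03 (limma adjusted p = 0.0242). The call was lost without knockout-labelled control 6 or without CSDS library 1, 2 or 5 (limma adjusted p up to 0.0561), with the difference still at 0.11 or more, and with the conflicting libraries added as CSDS (0.10, limma adjusted p = 0.11). In WT, controls measured 20.1 to 21.5 RPKM (median 20.3) and CSDS libraries 20.6 to 23.3 (median 22.4). These overlapped, and the difference of 0.09 ± 0.04 did not pass (limma adjusted p = 0.0901). Without WT CSDS 3 it was 0.11 with a limma adjusted p of 0.0405. The difference between the effects was 0.03 ± 0.05 (95% interval −0.07 to 0.13), and its 2 genotype comparisons gave 0.03 ± 0.03 among controls and 0.07 ± 0.03 after CSDS, neither called by limma.

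Gabrd and Gabra4 were the 2 of 7 called after CSDS under the knockout label, both higher, against 6.17% of 18259 genes called higher and 15% in either direction. The median over the 7 was 0.10, against −0.01 over all genes. In the authors' deposited table the corresponding values were 0.24 for Gabrd (FDR 0.00766), 0.12 for Gabra4 (FDR 0.0266) and 0.13 for Gabra5 (FDR 0.0259). Where control 10 of both genotypes was left out, Gabra5 and Gabrd kept their calls in WT (0.13 and 0.17, limma adjusted p = 0.0159 and 0.0275). Gabrd and Gabra4 kept theirs under the knockout label (0.24 and 0.10, limma adjusted p = 0.00921 and 0.0201). The interaction of genotype label and CSDS called 0 of the 7 genes, with 0 of 7 at an unadjusted p under 0.05, against 0.148% of 18263 genes. For Gabra2 itself CSDS gave 0.05 ± 0.08 in WT and −0.36 ± 0.05 under the knockout label (limma adjusted p = 0.693 and 0.00178). The latter call was lost with the conflicting libraries added as CSDS (−0.24, limma adjusted p = 0.189). In those, knockout-labelled 10B and 11, Gabra2 was 24.4 and 24.7 RPKM. Both values lay inside the range of controls of that label (21.4 to 26.2) and above its CSDS libraries (17.4 to 18.5). The genotype difference in the CSDS effect on Gabra2, −0.41 ± 0.10, did not pass (limma adjusted p = 0.103). Without WT control 10 it was −0.33 with a limma adjusted p of 0.0241.

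**Figure D2:**
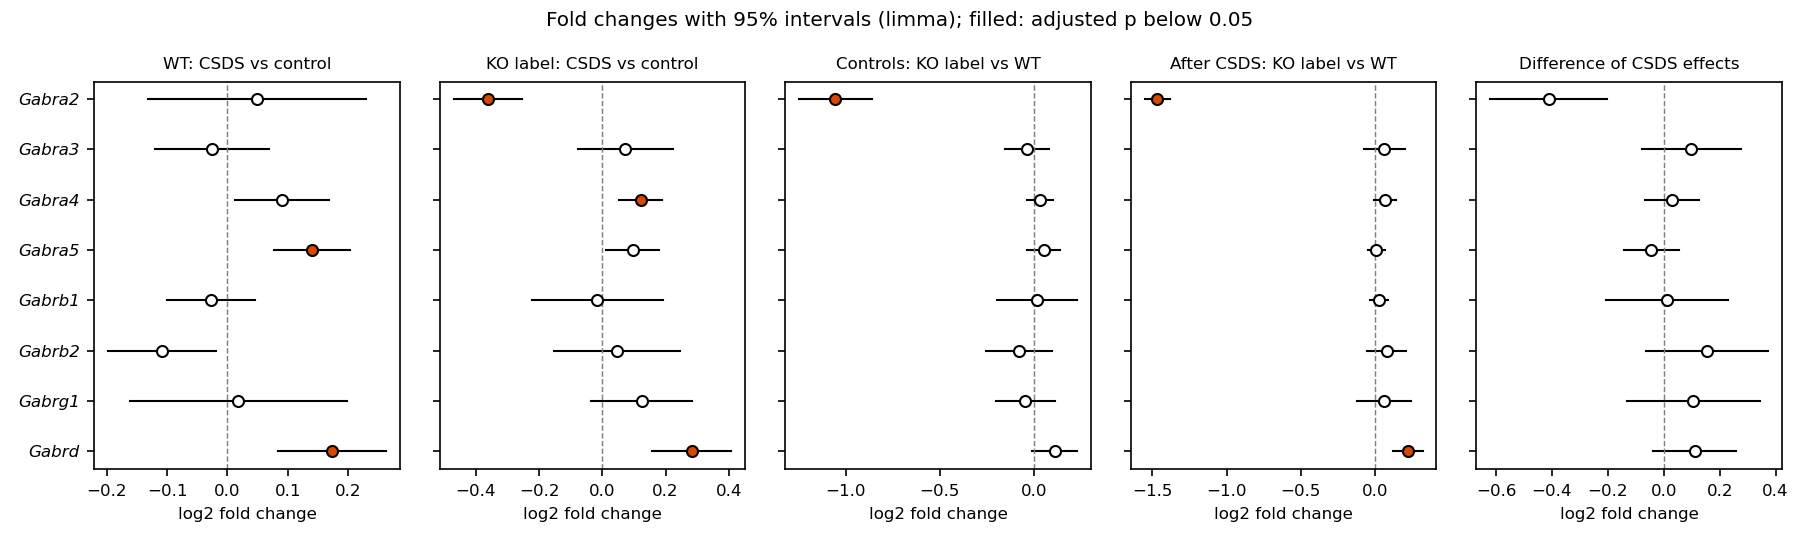
Log2 fold changes (x axes, with a different scale in each panel) and 95% intervals for Gabra2 and the 7 other subunit genes in the 5 comparisons, with filled points where the limma adjusted p is below 0.05. Gabrd is filled in 3 panels, Gabra5 and Gabra4 in 1 each, and Gabra2 in 3.

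Gabra3 encodes alpha 3, which in the adult hippocampus is a lesser alpha subunit, and lies at chrX:72432681-72656848 (minus strand, ENSMUSG00000031343). WT controls ranged from 16.4 to 19.7 RPKM (median 18.2) and WT CSDS libraries from 17.0 to 18.5 (median 17.7). Knockout-labelled controls ranged from 16.5 to 19.1 RPKM (median 17.8) and CSDS libraries from 16.5 to 20.8 (median 19.0). All 4 groups overlapped, and no comparison passed. The 2 CSDS effects were −0.03 ± 0.04 in WT and 0.07 ± 0.07 under the knockout label.

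The beta subunit genes Gabrb1 and Gabrb2 encode partners of alpha in the GABA binding sites. Gabrb1 (chr5:71658113-72149037, plus strand, ENSMUSG00000029212) had means of 18.1 RPKM in controls and 17.7 after CSDS in WT, and 18.5 and 18.1 under the knockout label. Knockout-labelled controls 6 to 10 measured 19.5, 20.9, 19.1, 19.1 and 13.6 RPKM, so that control 10 lay below every other library and the other 4 above every WT control. The CSDS effect under the knockout label was −0.02 ± 0.09 and did not pass. Without control 10 it was −0.12 ± 0.03 with a limma adjusted p of 0.0291. In WT the effect was −0.03 ± 0.03, and controls (17.1 to 18.7 RPKM) overlapped CSDS libraries (17.3 to 18.8).

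Gabrb2 (chr11:42419757-42629028, plus strand, ENSMUSG00000007653) measured 21.8, 19.9, 20.9, 20.9 and 19.4 RPKM in WT controls 6 to 10 and 19.3, 19.7, 17.5, 19.1 and 19.6 in WT CSDS libraries 1 to 5. In WT, 3 CSDS libraries lay below every control, and the difference of −0.11 ± 0.04 did not pass (limma adjusted p = 0.077). Without WT control 10 it was −0.13 with a limma adjusted p of 0.0432. With the library of conflicting label added as a control it was −0.12 (limma adjusted p = 0.0400). Knockout-labelled controls ranged from 15.8 RPKM in control 10 to 22.3 and CSDS libraries from 17.6 to 22.8. The effect there was 0.05 ± 0.09, and the difference between the effects 0.16 ± 0.10 (95% interval −0.06 to 0.37).

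Gabrg1 encodes gamma 1, a less common gamma subunit, and lies next to Gabra2 at chr5:70751047-70842617 (minus strand, ENSMUSG00000001260). It was the lowest of the 8 genes, with ranges of 3.92 to 5.27 RPKM in WT controls and 4.04 to 5.08 in WT after CSDS. Knockout-labelled controls ranged from 3.97 to 4.39 RPKM and CSDS libraries from 3.97 to 5.64. All 4 groups overlapped. The CSDS effect was 0.02 ± 0.08 in WT and 0.12 ± 0.07 under the knockout label, and neither passed.

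**Figure D3:**
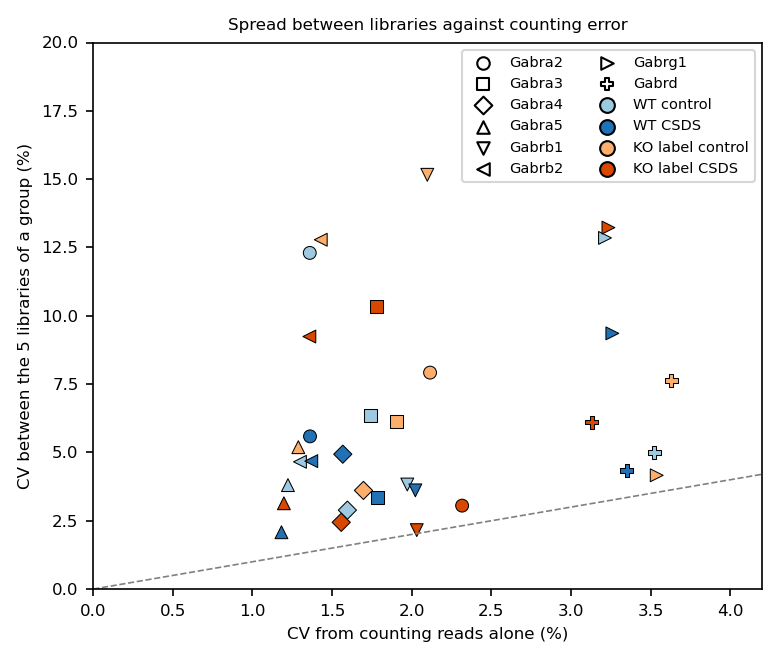
Coefficient of variation between the 5 libraries of a group (y axis, percent) against that expected from counting reads alone (x axis, percent) for the 8 genes in 4 groups, with the dashed line at equality. All 32 points lie above the line. Gabrb1 in knockout-labelled controls is highest at 15.2%, against 2.10% from counting.

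The fewest reads for any of the 8 genes in the 20 libraries was 502, for Gabrd. The library spread exceeded counting error in every group and gene, by little for Gabrb1 in knockout-labelled CSDS libraries (2.16% against 2.03%). It was smallest for Gabra5 in WT after CSDS, at 2.08%, with 1.18% from counting.

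Between genes, per-length levels over the 20 libraries were 58.0 RPKM for Gabra5, 35.1 for Gabra2, 21.7 for Gabra4, 19.9 for Gabrb2, 18.1 for Gabra3 and for Gabrb1, 6.96 for Gabrd and 4.42 for Gabrg1. In WT controls Gabra5 overlapped Gabra2, and Gabra4, Gabrb2, Gabra3 and Gabrb1 overlapped in turn. Gabrd and Gabrg1 stood apart from their neighbours in the order in every group. Gabra2 ranked second in WT and among knockout-labelled controls, where it overlapped Gabra4, and 6th of 8 after CSDS under the knockout label. This order depends on the gene length used. The values give a length of 3089 bases for Gabrb1 and 2392 for Gabra2, while all GENCODE exons span 13838 and 7640 bases. On those, Gabrb1 came to 4.03 and Gabra2 to 11.0 RPKM, 7th and 5th of 8.

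Of the subunit genes outside the 7, Gabrg3, for a further gamma subunit, had means of 2.00 ± 0.185 RPKM in WT controls and 1.86 ± 0.160 in WT CSDS libraries (SD, n = 5). Under the knockout label they were 1.95 ± 0.133 and 2.07 ± 0.118 RPKM. It was tested in all 5 comparisons and called in none. Gabra6, Gabrp, Gabrr1, Gabrr3, Gabre and Gabrq were below the filter of 0.5 RPKM.

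Genes for assembly, trafficking and anchoring of the receptors were measured for 26 of 27 listed. In WT after CSDS 3 were higher and 5 lower, where 22.4% of all genes were called, with a median of −0.03 against −0.00 over all genes. The 4 of smallest p were Mdga1, which binds neuroligin 2 (−0.52 ± 0.05), the presynaptic scaffold gene Bsn (−0.32 ± 0.04), Ubqln1, whose product binds receptor subunits (−0.19 ± 0.03), and the transport adaptor gene Trak2 (0.22 ± 0.04). After CSDS under the knockout label 1 was higher and 3 lower, a share near the 15% of all genes called there. They were Trak2 (0.14 ± 0.04), Mdga1 (−0.45 ± 0.07), Rdx, which anchors alpha 5 receptors (−0.14 ± 0.03), and Ubqln1 (−0.12 ± 0.03). Among controls Trak2 was higher under the knockout label (0.22 ± 0.03, limma adjusted p = 0.014). After CSDS, 0 of 26 were called between genotype labels, against 1.91% of all genes. Gphn, for the scaffold protein gephyrin, was not called in any comparison.

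**Figure D4:**
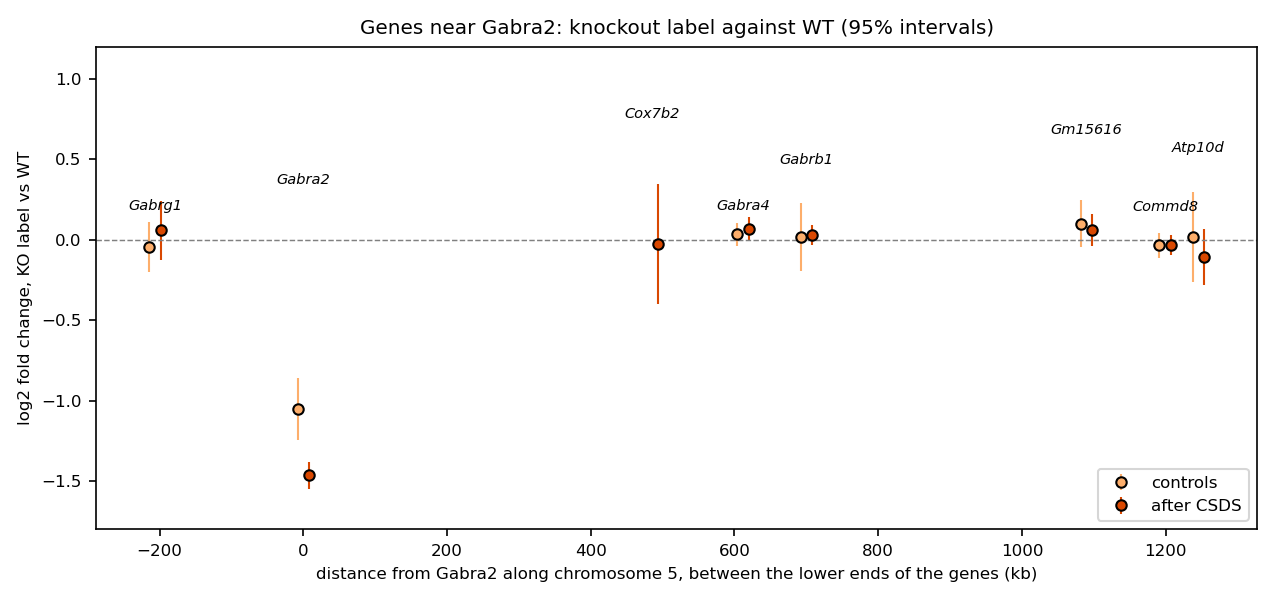
Log2 fold change between the knockout label and WT (y axis, with 95% intervals) for tested genes around Gabra2, by distance along chromosome 5 (x axis, kb), among controls and after CSDS, drawn slightly apart. Gabra2 lies at −1.06 and −1.47, and the intervals of the cluster genes Gabrg1, Gabra4 and Gabrb1 cross 0 in both comparisons.

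Gabrg1, Gabra2, Gabra4 and Gabrb1 form 1 gene cluster on chromosome 5. Between the lower ends of the genes, Gabrg1 is 207 kb from Gabra2 on one side, and Gabra4 and Gabrb1 are 612 and 701 kb away on the other. Gabrg1 differed by −0.05 ± 0.07 among controls and 0.06 ± 0.08 after CSDS, and Gabrb1 by 0.02 ± 0.10 and 0.03 ± 0.03. Of the genes tested within 1 Mb of Gabra2, 0 of 3 among controls and 0 of 4 after CSDS were called between genotype labels. Over all genes 1.14% and 1.91% were called. The genes within 1 Mb include Gabrg1, Gabra4 and Gabrb1 themselves. Gabra4 and Gabrb1 share 46 exon bases at their facing starts, and reads there cannot be told apart without strand. Around Gabrd on chromosome 4, 6 of 60 genes were higher and 3 lower in WT after CSDS, where 9.88% of all genes were higher, so that share is near the background. Under the knockout label 7 of 61 were higher and 1 lower, where 6.17% of all genes were higher. Fndc10 (0.31 and 0.17) and Cptp (0.17 and 0.22) had the smallest p in both. Between genotype labels 0 of 60 neighbours were called among controls, against 1.14% of all genes. After CSDS 1 of 62 was called, Fam213b (−0.14), against 1.91% of all genes.

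The genes most like each subunit gene were sought by Pearson's r of log2(RPKM + 0.5) among 16262 genes with a mean of at least 1 RPKM, with the 4 group means taken out. Over the 20 libraries the highest r was with Sema7a for Gabrd (0.82), Gria1 for Gabra5 (0.86), Kcnj3 for Gabra4 (0.85) and Fgf12 for Gabra3 (0.89). It was with Tnr for Gabrb1 (0.93), Scn2a for Gabrb2 (0.93) and Klhl13 for Gabrg1 (0.85). Knockout-labelled control 10 was low for Gabrb1 and Gabrb2, and r with these partners was not computed without it. The points share libraries, depth and any difference in dissection, and these are the highest of many values, given as a description. With the group means left in, Tmod1 (0.94) and Exosc10 (0.93) were nearest to Gabrd, Kcnj3 (0.92) and Alg2 (0.92) to Gabra4, and Cdc42se2 (0.91) and Chn1 (0.90) to Gabra5.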

How the data were processed

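Libraries were grouped by title and treatment field where these matched. Per the file headers, the authors deposited RPKM per library, one table per genotype, with their own log2 fold changes and abundances, a likelihood ratio score, p-values and false discovery rates from edgeR. STAR and mm10 come from the submitters' processing notes; the sources used here do not name the counting tool or the annotation. Per the labels, reads were single-end. Depth was estimated from low RPKM values of single-exon genes, and 91.72% to 93.04% of values fell within 0.05 of a whole read. Lengths of the subunit genes were recovered the same way. GENCODE M21 held 37693 of 39017 gene identifiers, 37656 at the same coordinates.

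Values were tested as log2(RPKM + 0.5) with limma 3.58.1 (trend, two-sided, R 4.3.3) where a gene averaged 0.5 RPKM or more in the fitted libraries, which all 7 members did. The pseudocount shrinks fold changes of low genes. P-values were Benjamini-Hochberg adjusted over all genes tested. The fit was tested on simulated data. Some other subunit genes are not reported here. The CSDS comparisons share no library with each other, while the genotype comparisons reuse the same libraries. The members and the gene lists were chosen with earlier results of these data known. Named genes were the members, Gabra2, Nrsn2 and the 4 called genes of smallest p per list or member's neighbours. Also named were the 3 most like each member, of which the text gives the first 1 or 2. Xist, C1ql2 and the interneuron genes were picked with their values in view. Alternatives were pseudocounts of 0.1 and 1, no filter or 2 RPKM, median scaling, quantile normalization, array weights, the conflicting libraries as control or CSDS, all 4 groups fitted together, the replicate block and leaving out libraries.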

Additional observations from a re-analysis of the deposited data

Results flagged for a closer look

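In 32 sets of 5 libraries (8 genes in 4 groups), 4 had 1 library far from the other 4, with a gap above 0.71 of the range, where chance gives about 1 in 20. Gabra5 was 61.9 RPKM in knockout-labelled control 7. Gabrb1 was 13.6 RPKM in knockout-labelled control 10 and 18.8 RPKM in WT CSDS 2. Gabrb2 was 17.5 RPKM in WT CSDS 3.

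The libraries of conflicting label enter no comparison, and 5 of their values for the 7 subunit genes lay above all controls of their genotype label. For Gabra2, WT 9B was also above them, at 53.3 RPKM where controls reached 53.1. Gabrd was 8.49 RPKM in knockout-labelled 10B and 7.36 RPKM in knockout-labelled 11, where controls reached 7.06. In knockout-labelled 11, Gabra4 was 22.4 RPKM and Gabrg1 4.41 RPKM. Gabrb1 was 19.6 RPKM in WT 9B. Gabra5 went the other way in knockout-labelled 10B, at 53.1 RPKM where controls of that label began at 54.8. Over these 3 libraries and 8 genes, 10 values fell only in the control range, 4 only in the CSDS range, 7 in both and 3 in neither.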

How the results depend on the processing

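Of 928 alternative values of single subunit genes, 899 kept their side of the threshold, 11 gained and 18 lost a call, and no called value reversed. The number of the 7 members called was 2 in WT after CSDS. It was 1 there with the conflicting libraries as CSDS, 3 with them as control and 2 to 3 when 1 library was left out. Under the knockout label it was 2 (1 with the conflicting libraries as CSDS, 1 to 3 when 1 was left out). With them as control it was again 2 there, where Gabra5 gained and Gabrd lost a call. Between genotype labels after CSDS it was 1 (0 without a filter or with array weights, 0 to 1 when 1 was left out). Among controls and for the interaction it was 0 under every setting run. Over all genes, calls in WT went from 4093 to 1240 with the conflicting library as CSDS and to 4729 with it as control. They were 3077 to 4016 when 1 was left out. Under the knockout label they went from 2747 to 143 with the conflicting libraries as CSDS and to 3235 with them as control (1658 to 3668). Between genotype labels among controls they went from 209 to 116 with median scaling, 403 with array weights, 978 with the conflicting libraries as control and 722 with all 4 groups fitted together (68 to 218). After CSDS they were 349 (205 to 478). For the interaction they went from 27 to 184 with array weights, 1 and 98 with the conflicting libraries as CSDS and as control, and 181 without control 10 (16 to 244). The causes were not tested. With the replicate number as a block, the members called between genotype labels after CSDS went from 1 to 0 and stayed at 0 among controls, and genes called went from 349 to 162 and from 209 to 45. Over 10 same-numbered pairs r was −0.11 to 0.37, 3 were over 0.1, and 4 libraries were most like the one with their own number. Those 3 were controls 10 (0.37, the number with high Xist), 8 (0.30) and 6 (0.21). Whether the numbers pair the samples is not settled by these values. No shared numbers exist within a CSDS comparison. Counting error was a part of the spread for the lower genes: for Gabrd in WT CSDS libraries the coefficient of variation was 4.34%, with 3.35% from counting alone.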

Other observations

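With the 4 group means taken out, the subunit genes that varied most alike over the 20 libraries were Gabrb1 and Gabrb2 (r = 0.73), Gabra3 and Gabrg1 (r = 0.71) and Gabra4 and Gabra5 (r = 0.62), out of all pairs of the 8 genes. Without knockout-labelled control 10 the first was 0.51, while the others were 0.71 and 0.59. These are descriptions of shared libraries, with no test.

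Gabra3 had 4 of 18 tested neighbours within 1 Mb on chromosome X higher in WT after CSDS (Hmgb3, Pnma3, Pnma5 and Nsdhl) and 4 of 19 higher under the knockout label (Pnma3, Hmgb3, Nsdhl and Zfp275), where 9.88% and 6.17% of all genes were higher. Hmgb3 was higher by 0.28 ± 0.05 and 0.44 ± 0.09, and Pnma3 by 0.21 ± 0.04 and 0.26 ± 0.05 (SE, limma). Gabra3 itself was called in neither. Commd8, on the far side of Gabrb1 in the chromosome 5 cluster, was lower after CSDS in both (−0.14 ± 0.03 and −0.13 ± 0.03).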
